A study of Mus musculus with 8 samples.

Results

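Transcripts of 35 genes of cholesterol synthesis and of the SREBP program were followed in mouse embryonic fibroblasts (MEFs) that lack the kinase Lats2. The genes were chosen by name, with no measured value in the rule, though earlier results of these data were known. They comprise 18 genes of cholesterol synthesis, 6 of SREBP regulation and sterol transport, 9 of fatty acid synthesis and desaturation and 2 of cholesterol efflux, out of 14791 gene names with a probe above background. MEFs are cells grown out of whole embryos, here from the strain C57BL/6J, kept untreated in DMEM with fetal bovine serum. Each of 3 litters, numbered 112, 116 and 121, gave 1 Lats2-/- and 1 wild-type (Lats2+/+) RNA extract, so that there were 6 extracts, and each extract stands for 1 named clone. Both extracts of a litter were hybridised together on 2-colour Agilent arrays with the dyes swapped between arrays, on 2 arrays each for litters 112 and 116 and 4 for litter 121. Litters 112 and 116 lay on slide 1 and litter 121 on slide 2, so slide and litter 121 cannot be told apart.

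Sterol regulatory element-binding proteins (SREBPs) are membrane-bound transcription factors of the endoplasmic reticulum. When sterols are scarce, the escort protein SCAP carries them to the Golgi, where proteases free the active fragment. When sterols are plentiful, the INSIG proteins hold SCAP back, so the target genes tend to go up and down together. SREBP2 mainly drives the mevalonate and cholesterol genes, and SREBP1 mainly the fatty acid genes. In liver, LATS2 has been described as a brake on SREBP, which is the question put to the MEF data here. Cultured fibroblasts both make cholesterol and take it up from serum lipoproteins, and the arrays measure only transcripts, not the cleaved proteins.

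Values below are log2 ratios of Lats2-/- over Lats2+/+, averaged over the arrays of a litter, for the probe of a gene with the highest mean signal. The mean over litters is given ± SD with n = 3 litters. Of the gene probes on an array, 53.5% to 60.3% exceeded background clearly in the Lats2-/- extract and 52.9% to 61.3% in the wild-type extract, and no gene spot was saturated. The upstream Lats2 probe (chromosome 14, 56676512 to 56676571, mm8) was lower in Lats2-/- cells in every litter, at -1.33, -1.05 and -0.56. The other 3 Lats2 probes were at -0.70 to -0.18 in litters 112 and 116 and at 0.80 to 1.17 in litter 121, which goes against the label of that extract. The sources used here do not give the deleted part of the gene, so which of these probes check the label is not known. The study presents a western blot of its MEFs as showing the Lats2 knockout. Its caption names no litter, and the blot was not analysed here. The medians of the main groups are therefore also given without litter 121. As a check of the cell type, all 8 fibroblast markers were above background, while 0 of 5 hepatocyte, 1 of 5 adipocyte, 2 of 5 macrophage, 1 of 5 endothelial and 1 of 4 epithelial markers passed the same filter. The epithelial marker that passed, Krt19, was higher in Lats2-/- cells, reading 2.42 and 1.83 in litters 112 and 121 (adjusted p 0.711 in limma). Its wild-type extract of litter 112 was well above background on only 1 of 2 arrays. In litter 116 its wild-type extract was not well above background, and the bound was at least 1.20-fold higher. Cdh1, the epithelial cadherin, was well above background in a single extract, from Lats2-/- cells of litter 121, with a bound of at least 2.08-fold over the littermate. The endothelial gene Kdr and the hepatocyte gene Afp were likewise above background in that extract alone, with bounds of at least 1.41-fold and 1.23-fold. Krt18 went the other way in litter 116, with a bound of at least 1.24-fold for the wild-type extract, and Tacstd1 was well above background in none. The adipocyte marker that passed, Fabp4, a fatty acid carrier, read -1.83 and -0.67 in litters 116 and 121, and in litter 112, where its wild-type extract was dim, the bound was at least 1.25-fold higher in Lats2-/- cells. The fibroblast markers themselves differed by litter, with medians of 0.10, 1.95 and -0.93 in litters 112, 116 and 121, and their summed linear signal lay between 245937 and 540888 in the Lats2-/- and between 370333 and 610277 in the wild-type extracts. The part of these differences in the results below was not tested. In bulk RNA, fewer cells of a type and less RNA per cell cannot be told apart.

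Most of the 18 cholesterol synthesis genes were higher in Lats2-/- cells in litters 112 and 116 and lower in litter 121. In litter 112 all 18 were higher in Lats2-/- cells, with a median log2 ratio of 0.76 (1.70-fold), where 52.3% of all genes were higher. In litter 116, 16 of 18 were higher, with a median of 0.43 (1.34-fold), against 50.7% of all genes. In litter 121 only 3 were higher and 15 were lower, with a median of -0.27 (1.21-fold lower), where 50.9% of all genes were higher and 49.1% lower. The pattern of higher, higher and lower held for 13 of the 18 genes and for 12.8% of all genes. Of the 18, 3 were higher in all 3 litters, near the background share of 15.9% of all genes. The median of the 18 means was 0.30 against 0.01 for all genes, and it was 0.58 without litter 121, 0.24 without litter 116 and 0.12 without litter 112.

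**Figure D1:**
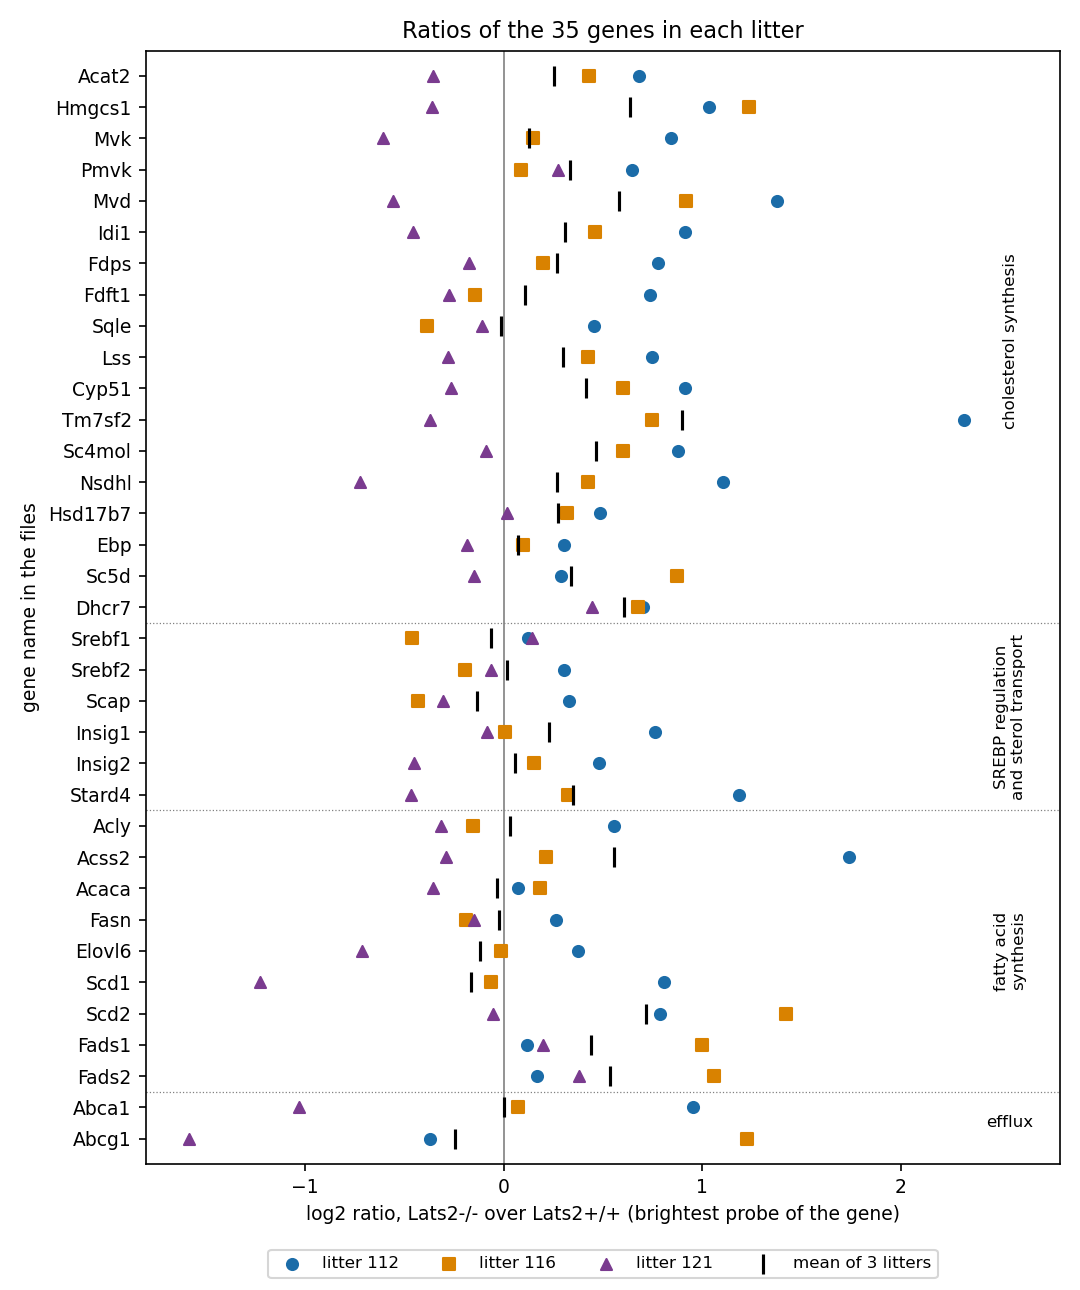
The log2 ratio of Lats2-/- over Lats2+/+ (x axis) of each of the 35 genes (y axis, in pathway order), with a blue circle for litter 112, an orange square for litter 116, a purple triangle for litter 121 and a black bar for the mean of the 3 litters. The blue circles lie right of 0 for 34 of 35 genes and the orange squares for 26, while only 6 purple triangles do. Abcg1 in litters 116 and 121 is drawn at its measured ratio, although its dim extract gives only a bound.

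No gene of the 35 passed the adjusted threshold in limma, nor did any of the 22642 probes tested (0% called), and the adjusted p of the 35 genes lay between 0.711 and 0.999. At an unadjusted p under 0.05, 1 of the 35 genes was called, where 7.59% of all genes were in either direction and 4.14% as higher. On litters 112 and 116 alone, 10 genes were called, all higher, where 7.51% of all genes were in either direction and 3.97% as higher. They were Acat2, Cyp51, Dhcr7, Hmgcs1, Idi1, Lss, Mvd, Sc4mol, Scd2 and Tm7sf2. Litter 121, left out here, was the one in which 29 of the 35 genes were lower. The direction of the 10 calls thus follows in part from that choice. The gene called over all litters was Dhcr7, whose enzyme reduces 7-dehydrocholesterol to cholesterol in the last step of the pathway. Its log2 ratios were 0.70, 0.68 and 0.44 in the order of litters 112, 116 and 121. The mean was 0.61 ± 0.14 (SD, n = 3), or 1.52-fold, with an adjusted p of 0.711 in limma. Dhcr7 was higher in Lats2-/- cells on 8 of 8 arrays, which repeat the same extracts, and its ratios had the same sign in all 3 litters. A second probe of the gene read 0.49, 0.53 and 0.31. In log2 signal, the Lats2-/- extracts read 11.12, 12.40 and 10.60 and the wild-type extracts 10.42, 11.72 and 10.15 in the same order of litters. The genotypes overlap across litters, since the wild-type extract of litter 116 was brighter than the Lats2-/- extracts of litters 112 and 121. The probe lies on chromosome 7 at 143657738 to 143657797 in mm8.

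The early, mevalonate part of the pathway makes isoprene units from acetyl-CoA. Acat2, the cytosolic thiolase that starts it, read 0.68, 0.43 and -0.36 in litters 112, 116 and 121. Hmgcs1, which condenses acetoacetyl-CoA with acetyl-CoA to HMG-CoA, read 1.03, 1.24 and -0.36, with a mean of 0.64 ± 0.87. It was thus 2.05-fold and 2.35-fold higher in the first pair of litters and lower in the last. Its other 2 probes had the same 3 signs but not the same sizes, at 0.37, 0.85 and -0.25 and at 1.77, 0.23 and -0.08. Mvk and Pmvk add phosphates to mevalonate. Mvk read 0.84, 0.15 and -0.61, whereas Pmvk read 0.64, 0.09 and 0.27 and was above 0 on 8 of 8 arrays (mean 0.33 ± 0.28, adjusted p 0.726 in limma). Pmvk is thereby an exception in litter 121. Mvd, which decarboxylates mevalonate diphosphate to isopentenyl diphosphate, had the widest swing of this stretch, at 1.38, 0.92 and -0.56 (mean 0.58 ± 1.01). Idi1, the isomerase that follows, read 0.92, 0.46 and -0.45. Its files' position in mm8 is on chromosome 2 although RefSeq places the gene on chromosome 13, so only its name is used here.

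Farnesyl diphosphate and squalene are made next. Fdps, the farnesyl diphosphate synthase, read 0.78, 0.20 and -0.17. Fdft1, squalene synthase, read 0.74, -0.14 and -0.27, so its litter 116 sided with litter 121. Sqle, the squalene epoxidase and a slow step of the pathway, read 0.46, -0.38 and -0.11, with a mean of -0.01 ± 0.43. Fdft1 and Sqle were the 2 cholesterol synthesis genes that were lower in litter 116. They stand next to each other in the pathway, and both lacked the second positive ratio that the genes before and after them showed. Lss, which closes squalene epoxide into lanosterol, read 0.75, 0.42 and -0.28. The probe of Lss that maps to a cDNA clone differed in litter 116, at -0.98.

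The last stretch turns lanosterol into cholesterol. Cyp51, the lanosterol demethylase, read 0.91, 0.60 and -0.27, and its 3 probes had the same signs in every litter. Tm7sf2, a sterol reductase, had the largest single ratio of the 35 genes, at 2.32 in litter 112, which is 4.99-fold. It was 0.74 in litter 116 and -0.37 in litter 121, so that the mean of 0.90 had an SD of 1.35, and it was 0.19 without litter 112. Its log2 signal in the wild-type extract of litter 112 was 9.71, well under the 10.83 to 12.20 of the other 5 extracts. The Lats2-/- extract of litter 112, at 12.03, was within the range of the others, so the large ratio goes with a low wild-type extract. Sc4mol (now Msmo1), the sterol methyl oxidase, read 0.88, 0.60 and -0.09. Nsdhl, which works beside it in removing methyl groups, read 1.1, 0.42 and -0.73, the lowest value of the pathway in litter 121. Hsd17b7, the reductase of the same complex, read 0.48, 0.32 and 0.02, and Ebp, the sterol isomerase, read 0.30, 0.10 and -0.19. Their SDs over litters, 0.24 and 0.25, were the smallest of the pathway after that of Dhcr7. Sc5d, the desaturase before Dhcr7, read 0.29, 0.87 and -0.15, but its second probe read 1.06, -0.38 and 0.13, so its direction in litters 116 and 121 depends on the probe.

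**Figure D2:**
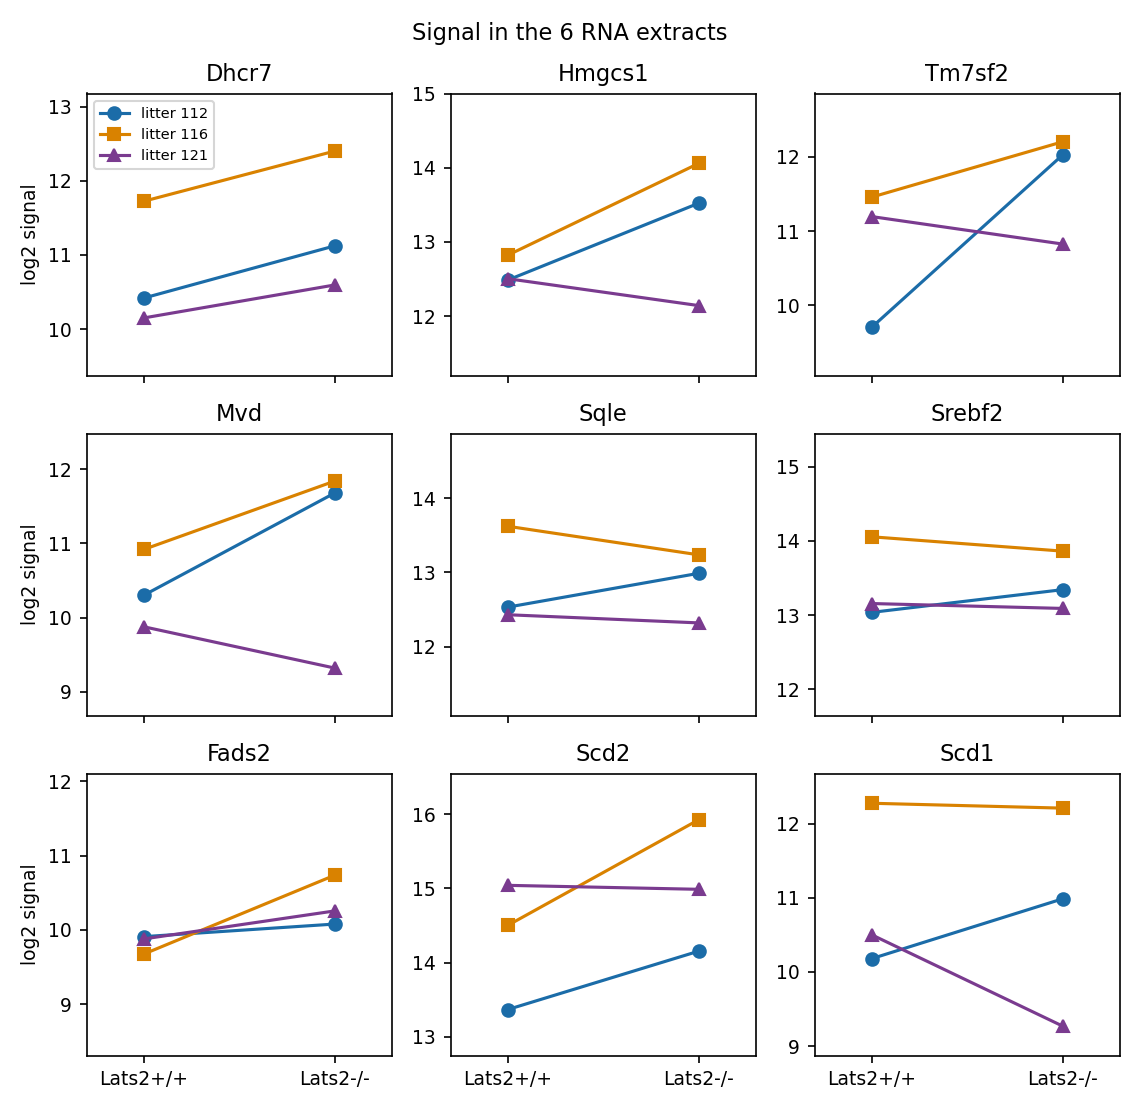
Log2 signal (y axis, each panel spanning the same number of units) of 9 genes in the Lats2+/+ and Lats2-/- extract (x axis) of each litter, with a line joining the extracts of a litter. The 3 lines slope up for Dhcr7 and Fads2, from 10.42, 11.72 and 10.15 to 11.12, 12.40 and 10.60 for Dhcr7, while for Hmgcs1, Mvd and Tm7sf2 the purple line of litter 121 slopes down.

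The group median differed little between arrays of a litter. On the 2 arrays of litter 112 the median of the 18 genes was 0.77 and 0.78, and on those of litter 116 it was 0.40 and 0.48. On the 4 arrays of litter 121 it lay between -0.28 and -0.25, with 3 or 4 of the 18 genes higher. The sign of this median was the same in both dye orientations of each litter, but single genes were less even. Of the 35 genes, 27 kept 1 sign on the arrays of each litter and 8 did not. In litter 121, Sqle, Sc4mol, Hsd17b7 and Srebf2 had opposite signs in the 2 dye orientations, and Elovl6, Scd1, Insig1 and Insig2 did in litter 116. Sqle spanned -0.33 to 0.13 on the arrays of litter 121, and Insig2 spanned 0.20 to 0.76 in litter 112, -0.16 to 0.47 in litter 116 and -0.75 to -0.19 in litter 121. The sign of each of the 8 genes in the litter named for it thus depended on the array. These arrays repeat the same extracts, so they show the technical spread only. Hmgcs1 read 1.21 to 1.26 on the arrays of litter 116 and -0.46 to -0.24 on those of litter 121. Of the 35 genes, 19 had several probes above background, and for 15 of these all the probes agreed in sign in each litter. The exceptions were Lss, Sc5d, Hsd17b7 and Srebf2.

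**Figure D3:**
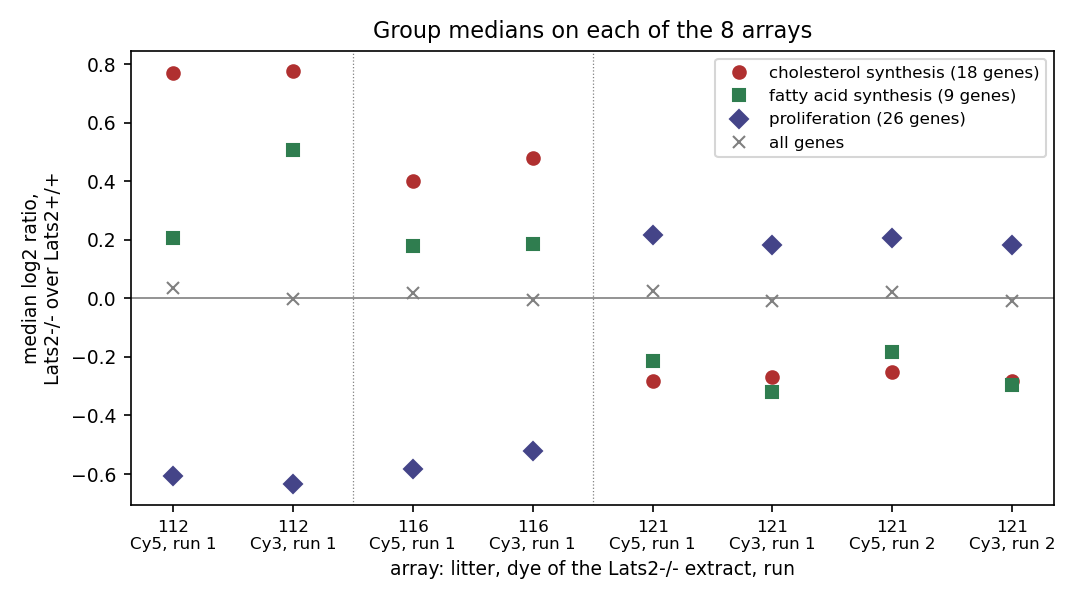
Median log2 ratio of Lats2-/- over Lats2+/+ (y axis) on each of the 8 arrays (x axis, with litter, dye of the Lats2-/- extract and run) for 18 cholesterol synthesis genes, 9 fatty acid synthesis genes, 26 proliferation genes and all genes. Arrays of a litter sit together whichever dye was used, and the cholesterol synthesis median passes from 0.77 and 0.78 in litter 112 to between -0.28 and -0.25 in litter 121.

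The levels in the single extracts also differed between litters, and for litter 121 this cannot be told apart from the slide. The log2 signal of each gene was set against its mean over the 6 extracts, and the median of the 18 genes was taken. It was 0.41 in the Lats2-/- and -0.36 in the wild-type extract of litter 112. In litter 116 it was 0.85 and 0.33, and in litter 121 it was -0.75 and -0.46. The wild-type extracts alone thus ranged from -0.46 to 0.33 and the Lats2-/- extracts from -0.75 to 0.85. Both extracts of litter 121 lay below both extracts of litter 116, and the genotypes overlapped. Across all genes the same median lay between -0.03 and 0.02 in every extract.

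**Figure D4:**
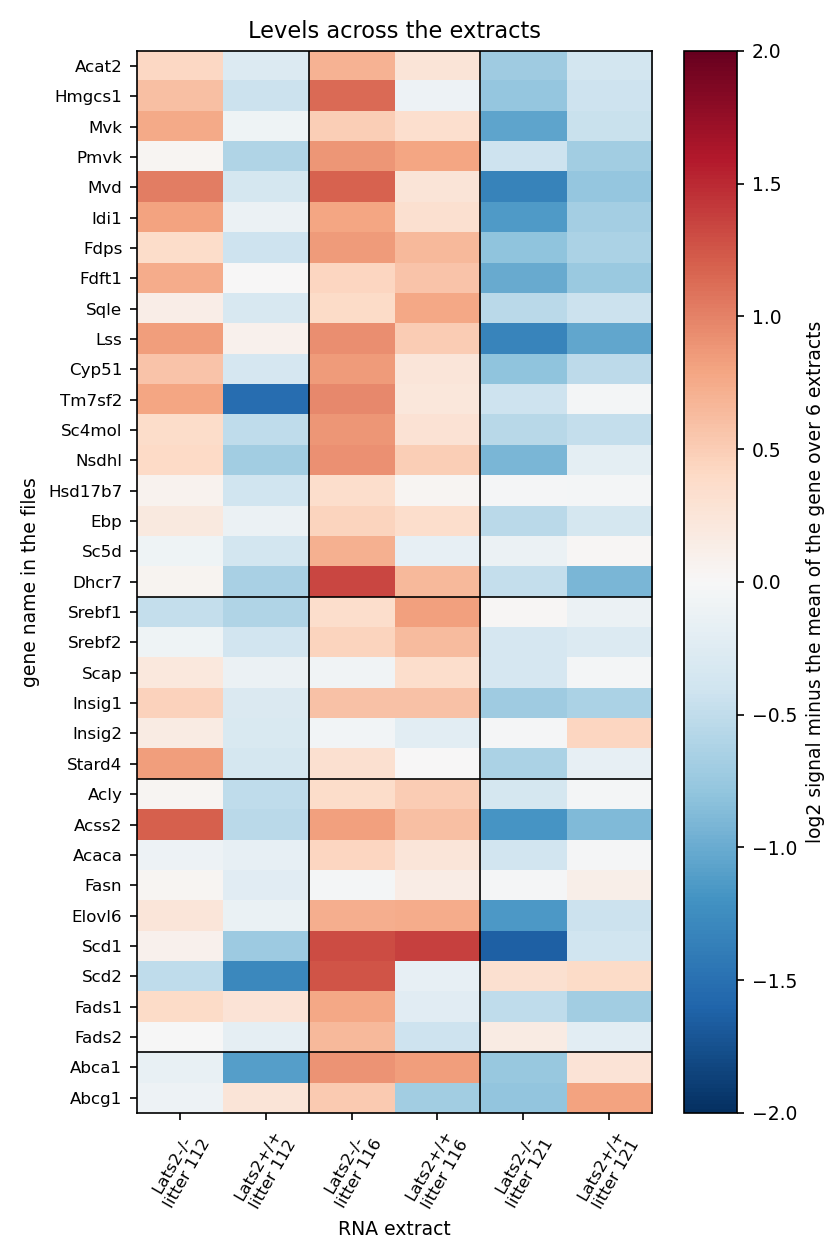
Log2 signal of each of the 35 genes (y axis) in each of the 6 RNA extracts (x axis), minus the mean of the gene over the 6 extracts, in colour from blue (low) to red (high). The cholesterol synthesis block is mostly red in both extracts of litter 116 (group medians 0.85 and 0.33) and mostly blue in both of litter 121 (-0.75 and -0.46), and it differs within the pair of litter 112 (0.41 and -0.36).

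The promoters of most cholesterol synthesis genes hold a CCAAT box, which the choice of genes did not use. Promoter sequences from RefSeq (GRCm38.p6) were found for 27 of the 35 genes, and the 200 bases before each start were searched on both strands, counting a gene if any of its listed starts had the motif. The CCAAT box (CCAAT), bound by the factor NF-Y, which works beside SREBP at many sterol genes, was in 19 of the 27 genes (70.4%) against 32.7% of all 27025 genes in the table. Among the cholesterol synthesis genes it was in 14 of 15 (93.3%), the exception being Acat2, and among the fatty acid genes it was in 2 of 6. The E-box CACGTG was in 6 of the 27 (22.2%) against 6.00% of all. The strict sterol regulatory element TCACNCCAC was found in 1, Hmgcs1, 137 bases before the start, against 1.01% of all. None of these motifs overlaps another in the sequences printed. A match is a description of letters and not a measured binding site. The following stretches show Hmgcs1 as the gene with both elements, Mvd and Tm7sf2 as genes with the higher, higher and lower pattern, and Dhcr7, which was higher in all 3 litters, at the start among its 3 listed starts that has the CCAAT box. Capitals mark the motifs, where ATTGG is CCAAT on the other strand, and each stretch ends at the base before the start.
Hmgcs1 (chr13:119690151-119690350, plus strand): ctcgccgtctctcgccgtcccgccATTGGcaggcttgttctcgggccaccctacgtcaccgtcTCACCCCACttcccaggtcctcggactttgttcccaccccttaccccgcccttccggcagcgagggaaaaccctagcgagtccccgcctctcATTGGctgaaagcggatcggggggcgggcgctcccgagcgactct
Mvd (chr8:122443423-122443622, minus strand): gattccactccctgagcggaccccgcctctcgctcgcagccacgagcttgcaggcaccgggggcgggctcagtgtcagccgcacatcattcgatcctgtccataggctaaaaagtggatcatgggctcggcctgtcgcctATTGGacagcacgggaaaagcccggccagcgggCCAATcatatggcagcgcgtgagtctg
Tm7sf2 (chr19:6067851-6068050, minus strand): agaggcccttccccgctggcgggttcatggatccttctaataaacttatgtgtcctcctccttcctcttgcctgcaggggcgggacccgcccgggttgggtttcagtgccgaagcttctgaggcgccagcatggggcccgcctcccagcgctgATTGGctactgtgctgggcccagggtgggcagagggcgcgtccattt
Dhcr7 (chr7:143830014-143830213, plus strand): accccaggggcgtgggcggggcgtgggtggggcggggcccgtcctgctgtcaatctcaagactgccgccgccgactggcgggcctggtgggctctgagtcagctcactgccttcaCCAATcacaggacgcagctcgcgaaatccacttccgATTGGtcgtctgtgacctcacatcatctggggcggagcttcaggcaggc
Dhcr7, Mvd and Hmgcs1 each have a pair of CCAAT boxes in this stretch, and Tm7sf2 has a single box 47 bases before its start.

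The 6 genes of SREBP regulation and sterol transport had litter medians of 0.40, -0.09 and -0.20, with 6, 3 and 1 of them higher. The median of their means was 0.04, with 0.19 without litter 121, 0.13 without litter 116 and -0.14 without litter 112. Srebf2, which encodes SREBP2, read 0.31, -0.19 and -0.07 (mean 0.02 ± 0.26). Its 4 probes did not share a sign in any litter, and their means lay between -0.09 and 0.14. Srebf1, which encodes SREBP1, read 0.12, -0.46 and 0.14, the only regulator that was higher in litter 121. Neither transcription factor gene had the higher, higher and lower signs of most cholesterol synthesis genes. Scap, the escort, read 0.33, -0.43 and -0.30. Insig1, the retention factor that is itself an SREBP target, read 0.76, 0.01 and -0.09, and Insig2, its paralog, read 0.48, 0.15 and -0.45. Stard4, a carrier that moves sterols between membranes and a known SREBP2 target, read 1.18, 0.32 and -0.47. Insig1, Insig2 and Stard4 had the higher, higher and lower signs, and the probes of each shared a sign in every litter. In litter 116, however, the signs of Insig1 and Insig2 differed between the dye orientations.

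The 9 fatty acid genes had litter medians of 0.37, 0.18 and -0.29, with 9, 5 and 2 higher. The median of their means was 0.03, with 0.37 without litter 121, 0.12 without litter 116 and -0.09 without litter 112. The genes that build palmitate had SDs over litters of 0.25 to 0.46. Acly, which makes cytosolic acetyl-CoA from citrate, read 0.55, -0.15 and -0.31. Acaca, acetyl-CoA carboxylase, read 0.07, 0.18 and -0.36, and Fasn, fatty acid synthase, read 0.27, -0.19 and -0.15. Acss2, which makes acetyl-CoA from acetate, differed from them in litter 112, with ratios of 1.74 (3.34-fold), 0.21 and -0.29. Its second probe above background read 0.93, 0.06 and -0.13. Elovl6, which lengthens palmitate, read 0.37, -0.01 and -0.72.

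The desaturases put double bonds into fatty acids and had unlike patterns. Scd1 read 0.81, -0.07 and -1.23, while its paralog Scd2 read 0.79, 1.42 and -0.05 (mean 0.72 ± 0.74, adjusted p 0.726 in limma). Scd1 was 2.34-fold lower in litter 121, and Scd2 was 2.68-fold higher in litter 116. Fads1 read 0.12, 1.0 and 0.20 (mean 0.44 ± 0.49) and Fads2 read 0.17, 1.06 and 0.38 (mean 0.54 ± 0.47, adjusted p 0.716 in limma). Both Fads genes were higher on 8 of 8 arrays, with the largest ratio in litter 116 and not in litter 112 as for most cholesterol genes. In log2 signal, Fads2 read 10.08, 10.73 and 10.25 in the Lats2-/- extracts and 9.91, 9.67 and 9.88 in the wild-type extracts, so its genotypes did not overlap. It was the only gene of the 35 with every Lats2-/- extract above every wild-type extract, where 3.25% of all genes had this, and 0 had the opposite, beside 3% of all genes. Whether probes of these paralogs also bind each other's transcripts was not tested.

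The efflux genes Abca1 and Abcg1 are driven by the oxysterol receptors LXR and normally go up when cells hold more sterol. Abca1 read 0.95, 0.07 and -1.03 (mean -0.00 ± 0.99). It was well above background on only 1 of the 2 arrays for the wild-type extract of litter 112. Abcg1 read -0.37 in litter 112. It was at least 2.33-fold higher in Lats2-/- cells in litter 116, where the wild-type extract was not well above background, and in litter 121, where the Lats2-/- extract was the dim side, the wild-type level was higher by at least 3.01-fold. Both efflux genes were lower in litter 121, the litter in which most cholesterol synthesis genes were lower as well.

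At the 2-fold size that the study's methods use, 6 of the 35 genes were at least 2-fold higher in litter 112, namely Tm7sf2, Acss2, Mvd, Stard4, Nsdhl and Hmgcs1, where 3.15% of all genes were. In litter 116 the genes were Scd2, Hmgcs1, Abcg1 and Fads2, beside 5.55% of all genes. None was 2-fold higher in litter 121 (4.04% of all genes), where Abcg1, Abca1 and Scd1 were at least 2-fold lower, beside 3.23% of all genes. By its brightest probe, Hmgcs1 was the only gene to reach this size in the same direction in a pair of litters. Neither of its other probes did so. Over all 35 genes, 5 were higher in all 3 litters (Dhcr7, Pmvk, Hsd17b7, Fads1 and Fads2), beside 15.9% of all genes, and 0 were lower in all 3, beside 14.1%. Hsd17b7 counts here on a value of 0.02 in litter 121, where 2 of 4 arrays were below 0 and its second probe read -0.02.

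Other sterol and lipid genes outside the 35 were less uniform. Of 26 listed genes, 24 were on the array and 21 had a probe above background, and their litter medians were 0.07, 0.16 and -0.04, with 12, 12 and 8 higher. None of the 21 reached an unadjusted p under 0.05 in limma, beside 7.59% of all genes, and 5 had the higher, higher and lower pattern, beside 12.8%. Their median SD over litters was 0.27, against 0.53 for the cholesterol synthesis genes. Ch25h, which makes 25-hydroxycholesterol, was at least 5.04-fold higher in Lats2-/- cells in litter 112, where the wild-type extract was not well above background, and read 0.60 and -0.16 in litters 116 and 121. Npc2, a lysosomal cholesterol carrier, read 1.1, 0.43 and -0.07. Other genes ran differently, with Vldlr, a lipoprotein receptor, at 0.20, -2.27 and 0.83 and Tmem97 at -0.60, 0.16 and -0.70. The NF-Y subunit genes Nfya, Nfyb and Nfyc stayed between -0.44 and 0.34 in every litter. Mbtps1 and Mbtps2, which encode the Golgi proteases that cut SREBP, stayed between -0.20 and 0.08.

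Proliferation genes had the opposite signs in the same litters. Of 26 such genes, 1, 1 and 22 were higher in litters 112, 116 and 121, and the litter medians were -0.57, -0.55 and 0.21. The pattern of lower, lower and higher held for 20 of the 26 and for 11.7% of all genes. In the single extracts, the proliferation median was 0.07 and 0.75 in the Lats2-/- and wild-type extracts of litter 112, -0.24 and 0.36 in litter 116, and -0.31 and -0.58 in litter 121. The part of growth state in the cholesterol gene ratios was not tested. Within a litter the extract with the higher proliferation median had the lower cholesterol synthesis median, but across litters the extracts of litter 121 were low in both.

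**Figure D5:**
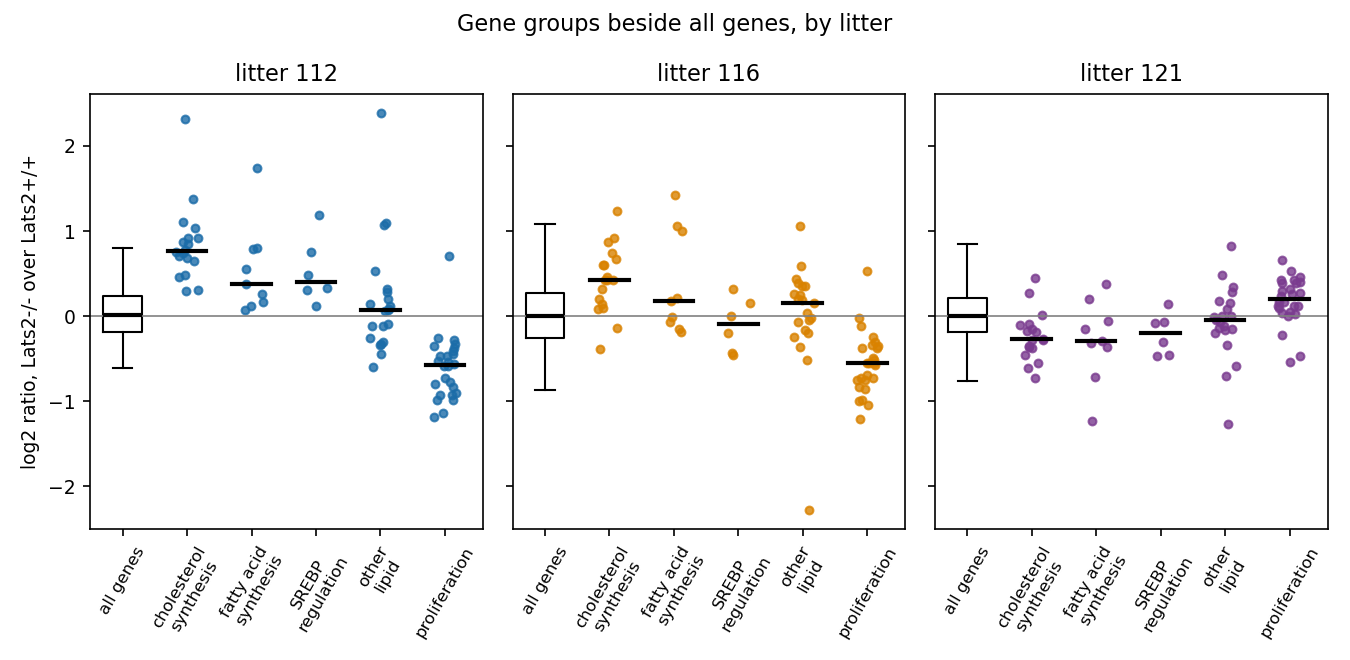
Log2 ratios of Lats2-/- over Lats2+/+ (y axis) in each litter (panels) for groups of genes (x axis): points are genes, thick black lines are group medians, and the box of all genes shows the quartiles with whiskers from the 5th to the 95th percentile. The cholesterol synthesis medians of 0.76, 0.43 and -0.27 and the proliferation medians of -0.57, -0.55 and 0.21 lie on opposite sides of 0 in each litter, and the highest other lipid point of litter 112, Ch25h, is drawn at its measured ratio although it is only a bound.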

How the data were processed

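RNA of Lats2-/- and Lats2+/+ MEFs was compared on 8 arrays of 3 litters. The authors extracted spots with Agilent Feature Extraction (version 10.5.1.1 in the submitters' notes and 10.7.3.1 in the headers). In the deposited scanner files stand spot and local background intensity on a linear scale, not normalized, processed intensity values, and the log10 ratio of red over green. The deposited value table holds log10 ratios, which set against the scanner ratios differed by at most 0.00500 and give Lats2-/- over Lats2+/+ on every array. The files place probes in mm8.

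Intensities were background corrected by normexp (offset 50) and normalized by loess within arrays with limma 3.58.1 in R 4.3.3. Control spots and 860 outlier spots were left out. Ratios were turned to Lats2-/- over Lats2+/+, taken as log2, and averaged per litter over both dye orientations, since the arrays of a litter share 2 extracts. Of 41174 gene probes, 22642 were kept, being well above background in at least 2 of 3 extracts of either genotype. The litter ratios were tested against 0, two-sided, by limma with Benjamini-Hochberg adjustment over all kept probes. Signals per extract were taken after Aquantile. A gene was read by its brightest probe. Where a probe was not well above background in an extract, a bound was computed against the dim side's floor, with the arrays of both dye orientations averaged. The script was tested on simulated data. The number of litters and arrays limits the precision.

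Values in every litter were given for genes with an unadjusted p under 0.05, for those with 1 sign in all litters and a mean of at least 0.3 in size, for those 2-fold different in any litter, and for the regulators and leading enzymes, and other members were added. The members, lists and tests were chosen with earlier results of these data known. Alternatives were the offset, processed signals, the value table, the filter, litter or slide as a random block, a dye term, no replicate block, each litter left out, the mean of all probes, and the methods' t-test. Sequences are from RefSeq. Some probe positions differ in chromosome from RefSeq and were not used.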

Additional observations from a re-analysis of the deposited data

How the results depend on the processing

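The number of litters limits the precision of every ratio. At an unadjusted p under 0.05, limma called 1 of the 35 genes. It called 7 genes with a litter block on the single arrays (15.0% of all genes), 8 when a dye term was added (14.7%) and 3 with a slide block (19.1%). Treating extracts as unpaired (no replicate block) called 1, which was Fads2 (2.77% of all genes). Leaving out a litter gave 1 to 10. The 10 were called without litter 121, all of them higher, beside 7.51% of all genes in either direction and 3.97% as higher. Past the adjusted threshold, 1 gene (Dhcr7) was called with litter or slide as a random block, where arrays of the same extracts count as observations and 341 and 717 of the 22642 probes passed, and 0 elsewhere. The median of the cholesterol synthesis genes stayed above 0 in every alternative, at 0.12 to 0.58 on leaving out a litter and 0.18 with the slide block. The fatty acid median was -0.09 without litter 112 and -0.05 with the slide block, and the regulator median -0.14 and -0.01.

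Single genes near 0 changed sign on other processing. On leaving out a litter, genes further from 0 did so too, such as Acss2, Stard4 and Nsdhl, with means of 0.55, 0.35 and 0.27. Abca1 was 0.044 with the offset of 16 and 0.17 with processed signals or the value table. Acly was -0.018 and -0.017 with these and -0.056 with the slide block, and Fasn was 0.017 with both. With the slide block Insig2 was -0.069, Mvk -0.057 and Srebf2 -0.00469. Acaca was 0.029 over all probes. The cause was not tested. Leaving out a litter gave Abca1 -0.48 to 0.51, Abcg1 -0.98 to 0.43, Acaca -0.14 to 0.13, Acly -0.23 to 0.20, Acss2 -0.038 to 0.98, Ebp -0.044 to 0.20, Elovl6 -0.36 to 0.18, Fasn -0.17 to 0.059, Fdft1 -0.21 to 0.30, Insig1 -0.040 to 0.38, Insig2 -0.15 to 0.31, Mvk -0.23 to 0.50, Nsdhl -0.15 to 0.76, Scap -0.37 to 0.012, Scd1 -0.65 to 0.37, Sqle -0.25 to 0.17, Srebf1 -0.17 to 0.13, Srebf2 -0.13 to 0.12 and Stard4 -0.072 to 0.75.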
